A study of Homo sapiens with 3 samples.

Results

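The ER translocon is the protein channel through which newly made proteins enter the endoplasmic reticulum (ER), and its genes were followed here in HT29 cells, an established human line from a colorectal adenocarcinoma. The set was fixed as 10 genes, chosen with earlier results of these data known. Every array probe whose gene symbol in the platform annotation is one of them was taken. That gave 10 probes for 8 genes, SEC61A1, SEC61B, SEC62, SEC63, SSR2, SSR3, SERP1 and TRAM1, of 24460 gene probes for 18639 genes. SSR1 and SEC61G were not analysed here. The cells were kept for 24 h in medium with DMSO, the solvent, or with a linderapyrone derivative at 5 or at 20 µM. Total RNA of each group was read on 1 single-colour array, 3 arrays in all, so no group had a replicate. Sample titles write the doses in mM, whereas the treatment and description fields write µM, the unit used here. The series was made to find genes whose expression differs between cells given the derivative and cells given DMSO.

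At the channel's core, the alpha subunit SEC61A1 spans the membrane and forms the pore, with the small beta and gamma subunits beside it. Nascent proteins are brought to it by the signal recognition particle and its receptor. SEC62 and SEC63 assist the entry of precursors that are delivered after translation, and SEC63 holds a J domain that recruits the lumenal chaperone BiP. The SSR genes encode the translocon-associated protein (TRAP) complex, which helps particular signal sequences open the channel. SERP1, also called RAMP4, is a small tail-anchored protein that sits at the ribosome-bound channel, and TRAM1 is a membrane protein beside the path of the nascent chain. When unfolded proteins build up in the ER, the factors XBP1 and ATF6 raise the transcription of many genes for chaperones and for protein entry.

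These factors bind short DNA elements, so the promoter windows of the translocon genes were searched for them. RefSeq windows on build GRCh38.p14, from 250 bases before to 50 after an annotated transcript start, were held for 7 of the 8 genes, 10 windows in all. The promoter of TRAM1 was not analysed here. The motifs were the ER stress response element, ERSE (CCAAT and CCACG with 9 bases of any kind between them), ERSE-II (ATTGG and CCACG with 1 such base between), the unfolded protein response element, UPRE (TGACG with TGG straight after it), and their shared core CCACG, each on both strands. The core lies inside each of the longer motifs. Upstream sequences follow for SERP1, whose brighter probe had the largest ratio to DMSO at 20 µM, for SEC62, the gene that went the other way, and for SSR2 and SEC63. They run 5′ to 3′ on the strand of the gene, end at the base before the start, and carry the motifs in capitals. SERP1 is at chr3:150546497-150546746, minus strand. SEC62 is at chr3:169966557-169966806, plus strand. SSR2 is at chr1:156020952-156021201, minus strand. SEC63 is at chr6:107958209-107958458, minus strand.
SERP1: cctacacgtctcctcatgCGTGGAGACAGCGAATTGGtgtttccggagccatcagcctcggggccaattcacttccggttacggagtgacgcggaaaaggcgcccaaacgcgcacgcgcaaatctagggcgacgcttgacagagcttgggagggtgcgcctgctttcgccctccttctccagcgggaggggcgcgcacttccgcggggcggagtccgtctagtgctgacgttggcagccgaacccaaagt
SEC62: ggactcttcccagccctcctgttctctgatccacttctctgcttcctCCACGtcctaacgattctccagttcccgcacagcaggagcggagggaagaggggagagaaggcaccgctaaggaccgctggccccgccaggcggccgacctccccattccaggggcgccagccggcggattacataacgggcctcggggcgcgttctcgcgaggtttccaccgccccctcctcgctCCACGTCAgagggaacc
SSR2: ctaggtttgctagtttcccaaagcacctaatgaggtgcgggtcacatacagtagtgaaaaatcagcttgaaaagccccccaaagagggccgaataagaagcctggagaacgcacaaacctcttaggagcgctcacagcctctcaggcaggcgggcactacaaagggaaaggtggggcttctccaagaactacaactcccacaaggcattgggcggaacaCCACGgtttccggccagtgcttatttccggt
SEC63: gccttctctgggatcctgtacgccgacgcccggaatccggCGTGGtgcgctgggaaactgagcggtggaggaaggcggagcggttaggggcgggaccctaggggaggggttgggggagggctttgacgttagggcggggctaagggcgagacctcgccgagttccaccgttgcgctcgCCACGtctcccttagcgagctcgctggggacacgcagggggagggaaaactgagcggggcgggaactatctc

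SERP1 was the only one of the 7 genes with a full ERSE. It runs on the strand opposite to the gene, from position -232 to -214 counted from the start, and is the capital stretch of its sequence above. Of 35116 promoter windows in the table, 27 held an ERSE on either strand, which is 0.0769%. ERSE-II, found in 0.0541% of all windows, was in 0 of the 10 windows. UPRE was found in 0.729% of all windows. Among these genes it was in SEC62, from position -17 to -10, and in the window of the most downstream of 3 starts of SSR3. The core was in 38.1% of all windows and in 8 of these 10. These windows are not independent, since 3 of them are starts of SSR3. The windows of SEC61B and of the upstream of 2 starts of SEC61A1 held 0 cores. A match is a match of letters in this window and shows no binding.

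**Figure D1:**
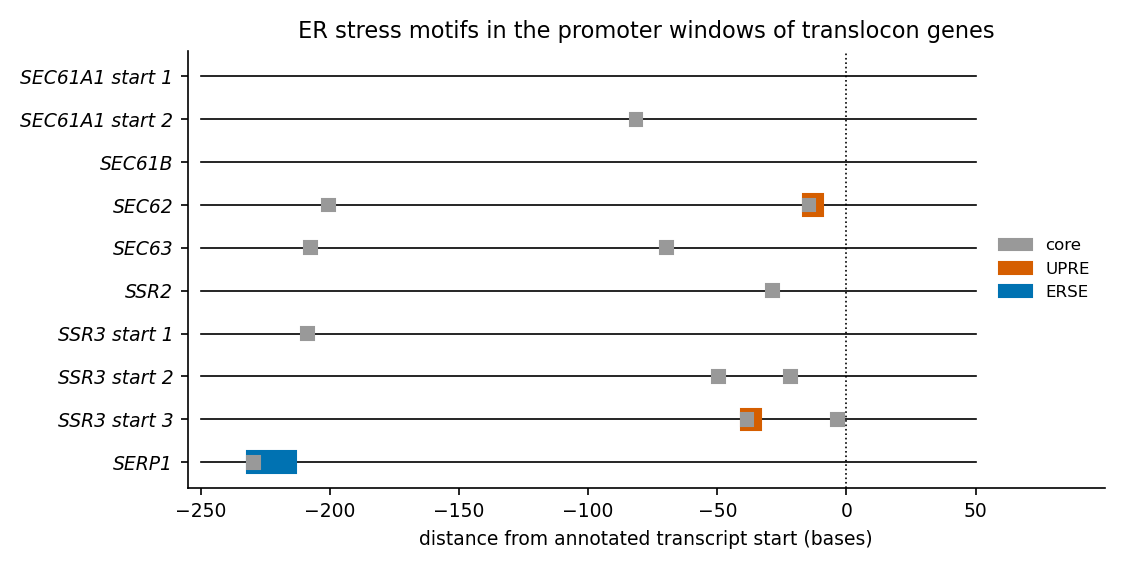
Positions of the 3 motifs found in the 10 promoter windows of 7 translocon genes, as distance in bases from the annotated transcript start (dotted line). Blue marks the ERSE of SERP1, orange the UPRE of SEC62 and of 1 start of SSR3, and grey the core, which also lies inside the longer motifs.

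All 10 probes gave a signal above the detection threshold on all 3 arrays. Of all gene probes, 86.17% passed it on the DMSO array, 85.56% at 5 µM and 85.65% at 20 µM. Detection alone therefore sets the 10 probes little apart. The threshold was the mean plus 2 SD of the blank and negative control spots, and stood at 82.5 for the DMSO array and at 79.4 and 80.2 for the 5 and 20 µM arrays, in the scanner's units of brightness. The DMSO array was the brightest as a whole, with a median gene probe signal of 116.5, against 106.9 at 5 µM and 110.3 at 20 µM. Spot signals are therefore given first as read, and every log2 ratio after them comes from values corrected for background and normalized between arrays. An offset of 50 was added to the corrected signal before the logarithm, so the ratios of dim probes come out closer to 0 than they are. As error, the spread between 2 probes of the same gene was used. Pairs were taken with both probes in the brightness range of the translocon probes, 909 to 917 a comparison. Among them, single log2 ratios had an SD of 0.16 for 20 µM against DMSO, 0.14 for 5 µM against DMSO and 0.13 for 20 against 5 µM. This spread is technical and says nothing of differences between cultures. In RNA of a whole dish, fewer cells with a transcript and less of it per cell cannot be told apart. No test was possible with 1 array a group, and that number sets how precise the values can be.

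As a check of the label, all 9 markers of colon epithelium with a probe were detected on all 3 arrays, from CDX2 at a DMSO signal of 92.6 to KRT18 at 56135. Of all gene probes 86.17% were detected on the DMSO array, so detection alone sets these markers little apart. Of the markers of other cells, 4 of 5 for fibroblasts (COL3A1, DCN, PDGFRB and LUM), 2 of 3 for blood cells (CD3E and CD14) and 2 of 3 for endothelium (VWF and CDH5) were also above the threshold on all 3 arrays. Their DMSO signals ran from 84.6 for COL3A1 to 231 for DCN. The other 3, COL1A1, PTPRC and PECAM1, were detected on 0 arrays, as were the second probes of DCN and of CD3E. The summed signals of the other cells' markers were 653.9, 615.8 and 617.9 for 5 fibroblast markers on the DMSO, 5 µM and 20 µM arrays. They were 315.5, 289.4 and 282.2 for 3 blood markers and 265.6, 250.5 and 253.2 for 3 endothelial markers.

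At 20 µM, 7 of the 8 translocon genes had a higher normalized level than in DMSO, and SEC62 a lower one, under median scaling and in the authors' value table as well. Their median log2 ratio was 0.58, against 0.0071 over all 16062 genes detected on both arrays. Above 0 lay 52.8% of all genes. At least 1.5-fold higher were 4 of the 8, against 1.94% of all genes, and 3 under median scaling, where SSR2 stood at 0.54. SERP1 alone reached 2-fold, on its brighter probe, as did 0.442% of all genes. Beyond 2 technical SDs, a log2 ratio of 0.32, lay 6 of the 8 on the higher side, where 5.95% of all genes lay. These genes are brighter than most, and 2700 genes had a DMSO signal within the range of the 7 brighter members, 427.8 to 2546. That range was chosen after the values were seen, and it leaves out the dim SEC62, the only member below DMSO. Of these 2700 genes, 4.63% reached 1.5-fold upward at 20 µM, and their median log2 ratio was -0.034, against 0.63 for the 7 members.

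At 5 µM the same 7 genes stood above DMSO, as did 52% of all genes, while under median scaling 5 genes did. Their number at least 1.5-fold higher was 2 of 8, SEC61A1 and SERP1, against 0.386% of 16075 genes. Beyond 2 technical SDs, 0.27, lay 5 of 8 on the higher side, against 2.71% of all genes. The median over the 8 genes was 0.44, and 0.0043 over all genes. Median scaling in place of quantile normalization brought the median at 5 µM to 0.23 and the count at least 1.5-fold higher to 0. It shifted all genes of this brightness alike: the median of the 2700 genes went from -0.012 to -0.23. The gap between the 7 brighter members and those genes was 0.54 under quantile normalization, 0.55 under median scaling and 0.58 in the authors' value table. For 20 µM the same gaps were 0.66, 0.68 and 0.71. SEC62, the member below DMSO, is left out of all these gaps, which makes them larger. Both doses were set against the same DMSO array, so their ratios share that array's errors.

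Between the doses, 7 of 8 genes were higher at 20 than at 5 µM, with a median log2 ratio of 0.15, and 49.5% of all 16036 genes were. No member was 1.5-fold apart, where 0.917% of all genes were at least 1.5-fold higher. Beyond 2 technical SDs, 0.26, lay SEC61A1, SEC63 and SERP1 on the higher side, where 6.01% of all genes lay, and SEC62 on the lower side, with 6.13%.

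**Figure D2:**
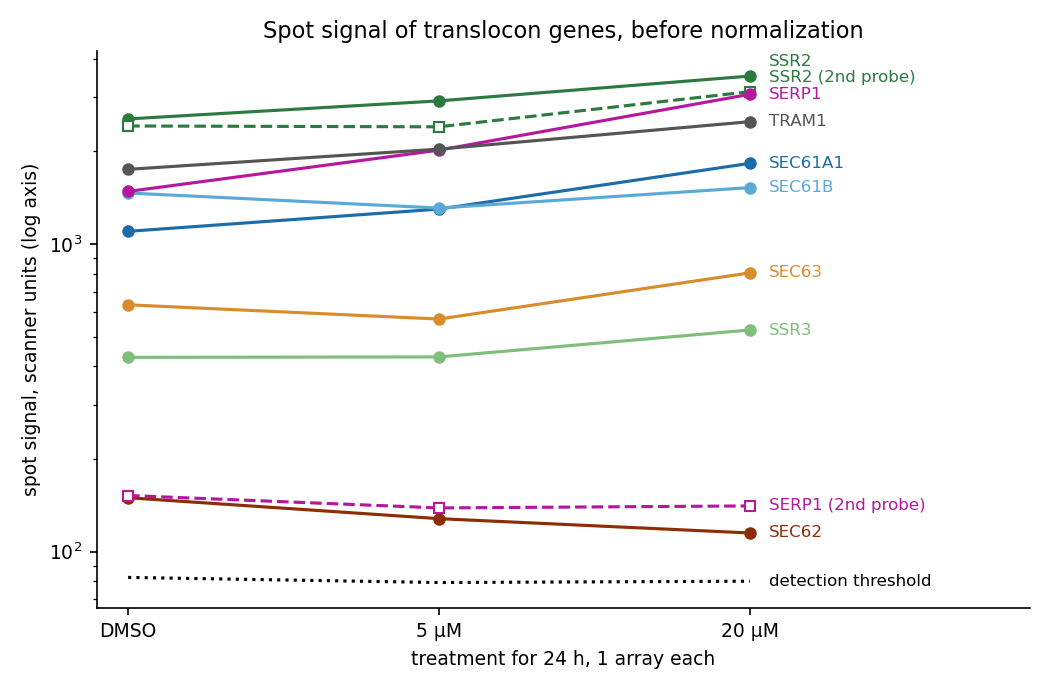
Spot signal of each translocon probe (log axis, scanner units, before normalization) in DMSO, at 5 µM and at 20 µM, 1 array each. Solid lines join the arrays for the probe that stands for a gene, dashed lines with open squares for the other probe of SSR2 and of SERP1, and the dotted line is the detection threshold. SERP1 climbs from 1480 to 3061, while SEC62 goes down from 149.7 to 115.

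The pore subunit SEC61A1 was read at 1098 in DMSO, at 1297 with 5 µM and at 1826 with 20 µM. The spot was brighter at each dose than in DMSO, although both treated arrays were dimmer as a whole. Its normalized level was 1.52-fold that of DMSO at 5 µM and 1.92-fold at 20 µM, as log2 ratios 0.61 and 0.94. With the brighter probe standing for SERP1, it was the member with the second largest ratio, ranked 90 of 16062 genes from the top at 20 µM and 55 of 16075 at 5 µM. SEC61B, the tail-anchored beta subunit of the same channel, had signals of 1463, 1307 and 1523, which do not separate the treated arrays from DMSO. Its log2 ratios were 0.22 at 5 µM and 0.25 at 20 µM, both within 2 technical SDs of 0, and 0.026 between the doses. Under median scaling its ratio at 5 µM was -0.039. The probes of the 2 subunits of 1 complex thus differed in their ratio at 20 µM by more than 2 technical SDs of a single ratio, and the difference has no replicate check.

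SEC63, the J-domain partner of BiP, was read at 633.8 in DMSO, 569.8 at 5 µM and 805 at 20 µM. Only the 20 µM spot was brighter than DMSO. The log2 ratio was 0.18 at 5 µM, within 2 technical SDs of 0 and -0.031 under median scaling, and 0.54 at 20 µM, beyond them. SEC63 reached at 5 µM 33.2% of its log2 ratio at 20 µM, the lowest share of the 7 genes. The others lay between 63.5% for SERP1 and 89.55% for SEC61B, with the brighter probe standing for SERP1 and for SSR2. These shares hold under quantile normalization only. Median scaling lowers the ratios at 5 µM, and puts those of SEC63 and SEC61B just below 0.

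SEC62, which works with SEC63 in the delivery of precursors after translation and also serves as a receptor for the clearance of ER membrane by autophagy, was the 1 gene below DMSO. Its signals were 149.7, 128 and 115, between 1.81 and 1.43 times the detection threshold, so the spot was dim on all 3 arrays. The brightest position without a probe read 133.9, 100.5 and 223.7 on the same arrays, so at 20 µM SEC62 lay below it. Among the markers of other cells, PDGFRB at 148.1 and CD14 at 146.3 were about as bright in DMSO, DCN brighter and the rest dimmer. Whether the signal of this probe comes from SEC62 transcript was not tested. The log2 ratio was -0.065 at 5 µM and -0.34 at 20 µM, the latter just past 2 technical SDs, 0.32, on the side where 7.5% of all genes lay. With dim probes the processing matters. The SEC62 ratio at 20 µM was -0.50 with an offset of 16, -0.71 with the blank level subtracted and -0.70 in the authors' value table. Those settings also raised the number of all genes at least 1.5-fold lower, from 295 to 509, 1104 and 959 in that order. Under median scaling the SEC62 ratio was -0.37. It was -0.27 with no background correction and -0.12 with the scanner's background column subtracted, both within 0.32 of 0. Thus SEC62 and SEC63 lay on opposite sides of 0 at 20 µM under every setting that gave a value for both.

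The TRAP complex was represented by its beta and gamma subunits. SSR2, the beta subunit, has a pair of probes. The brighter gave 2546 in DMSO, 2914 at 5 µM and 3508 at 20 µM, and the other 2415, 2400 and 3122. On each probe the 20 µM spot was the brightest, while at 5 µM only one of them was above DMSO before normalization. The log2 ratios of the brighter probe were 0.53 at 5 µM and 0.63 at 20 µM, and those of the other 0.38 and 0.59. The probes thus differed by less than 2 technical SDs at either dose. SSR3, the gamma subunit, was read at 427.8, 429.2 and 524.9. Its log2 ratio was 0.34 at 5 µM and 0.50 at 20 µM, 1.42-fold at the higher dose. SSR4, the delta subunit and no member of the set, had a ratio of 0.40 at 20 µM and 0.20 at 5 µM.

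With its brighter probe standing for the gene, SERP1 had the largest ratio of the set at both doses. That probe was read at 1480 in DMSO, 2016 at 5 µM and 3061 at 20 µM, so that every step up in dose gave a brighter spot. The normalized level was 1.75-fold that of DMSO at 5 µM and 2.41-fold at 20 µM, as log2 ratios 0.81 and 1.27. In rank this was 24 of 16075 genes at 5 µM and 31 of 16062 at 20 µM. The other SERP1 probe, which the annotation assigns to a predicted transcript model of the gene, was dim, with signals of 152.2, 138.7 and 140.8. Its log2 ratios were 0.057 at 5 µM and 0.0019 at 20 µM. At 20 µM the probes' gap is beyond 0.44, the 95th percentile of gaps over pairs with both probes in the members' brightness range. Those pairs were not matched in brightness, and the offset draws the ratio of the dim probe toward 0. With both probes averaged, SERP1 stood at 0.43 at 5 µM and 0.64 at 20 µM, and then 0 members were at least 2-fold higher. It was then no longer the first of the set, with SEC61A1 at 0.94 and TRAM1 at 0.72 above it at 20 µM, and SEC61A1 at 0.61, TRAM1 at 0.58 and SSR2 at 0.45 above it at 5 µM. Which transcripts each probe detects was not tested.

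TRAM1, the protein beside the nascent chain, was read at 1746, 2031 and 2494, brighter at each dose than in DMSO. The log2 ratios were 0.58 at 5 µM and 0.72 at 20 µM, 1.499-fold and 1.65-fold, with 0.14 between the doses. The ratio at 5 µM ranked 63 of 16075 genes. Under quantile normalization, 80.95% of the log2 ratio of TRAM1 was already there at 5 µM, and 84.7% for the brighter probe of SSR2. Median scaling made both shares smaller, with ratios at 5 and 20 µM of 0.35 and 0.59 for TRAM1 and 0.32 and 0.54 for SSR2. Under quantile normalization the other SSR2 probe had 0.38 at 5 µM and 0.59 at 20 µM, a smaller share than the brighter one. All these ratios share the DMSO array.

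**Figure D3:**
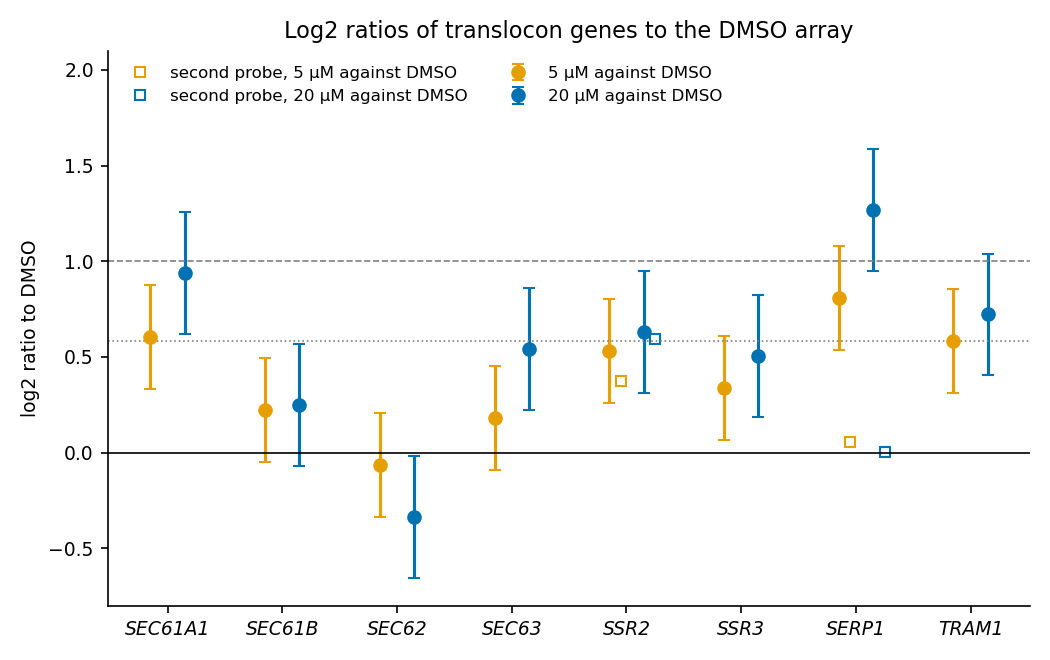
Log2 ratio of each translocon gene to DMSO at 5 µM (orange) and 20 µM (blue). Bars span 2 technical SDs either way, open squares are the other probe of SSR2 and of SERP1, and the grey lines mark 1.5-fold (dotted) and 2-fold (dashed). The 2 SSR2 probes lie close together, whereas the dim SERP1 probe stays at 0.0019 where the bright one is at 1.27.

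**Figure D4:**
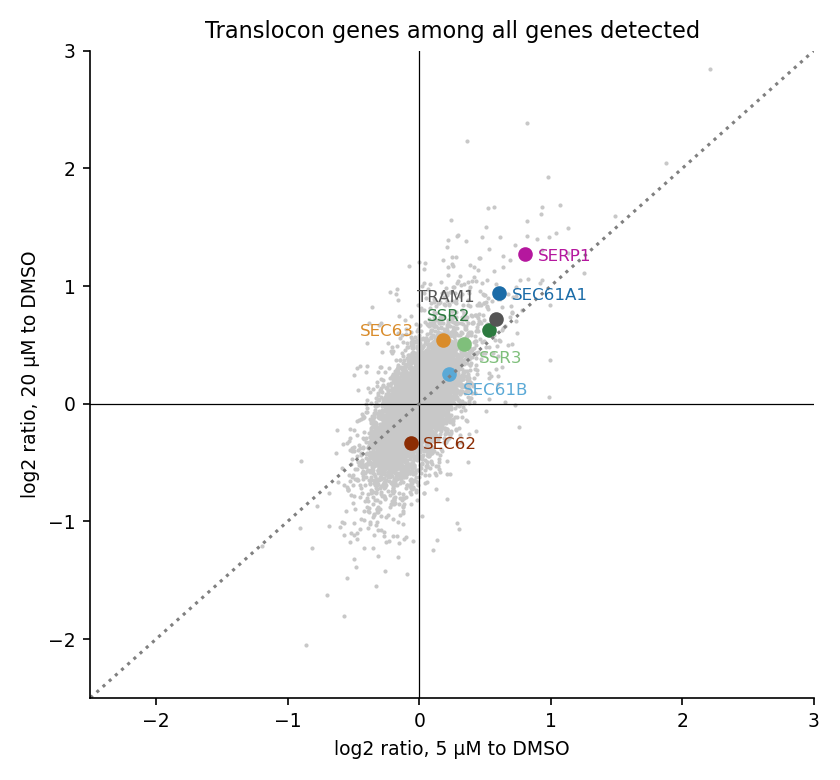
Log2 ratio to DMSO at 20 µM against that at 5 µM for 15920 genes detected on all 3 arrays (grey) with the 8 translocon genes in colour; the dotted line marks equal ratios. Both axes share the DMSO array, and under quantile normalization 7 of the 8 genes lie above 0 on both axes, with SEC62 at the lower left.

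Distances between the pairs of ratios to DMSO were taken over 15920 genes and 2 ratios each, with the brighter probe standing for SERP1. The genes outside the set nearest to SERP1 were then LCN2, ZNF165, DDIT3, SELENOS and NUCB2. With both probes averaged SERP1 stood at 0.43 at 5 µM and 0.64 at 20 µM, so these neighbours rest on the brighter probe. LCN2, a secreted siderophore-binding protein, was the nearest at a distance of 0.11, with ratios of 0.73 at 5 µM and 1.35 at 20 µM. DDIT3 encodes the stress factor CHOP and had ratios of 0.93 and 1.31. SELENOS, an ER selenoprotein of the degradation machinery, had 0.89 and 1.404. Such likeness over 3 arrays is a description.

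The genes that act around the channel were described in 9 further lists. Their counts at 20 µM stand beside shares over all genes of 52.8% above 0, which was 52.75% under median scaling, and 1.94% at least 1.5-fold higher. Of 4 measured paralogs and further subunits, 3 had ratios above 0 at 20 µM, and 0 reached 1.5-fold, counts too small to set apart from those shares. Their median was 0.050, between 0.025 under median scaling and 0.25 over the 2 genes that passed the stricter filter. TRAM2 stood at 0.012, SERP2 at 0.087 and TRAM1L1 at -0.28, and these 3 were dim, with DMSO signals of 96.8, 191.5 and 148.4. The 5 genes of the multipass translocon, the assembly that inserts proteins with many membrane spans, lay closest around 0 of the 9 lists at 20 µM. Their log2 ratios at 20 µM ran from -0.065 for TMEM147 to 0.017 for CCDC47, with NCLN at 0.015 and WDR83OS at 0.0071. Under median scaling the list's median was -0.097.

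Upstream of the channel, 6 of 8 genes of the signal recognition particle and its receptor had ratios above 0 at 20 µM, 5 under median scaling, a share near that of all genes, and the median was 0.36. The 2 that reached 1.5-fold, where 1.94% of all genes did, were SRPRB, the receptor's membrane-anchored beta subunit, at 0.83, and SRP19 at 0.76. SRP72 stood at 0.50, SRPRA, the receptor's alpha subunit, at 0.39, and SRP14 at -0.16. Signal peptidases, which trim the signal sequence, had 5 of 6 ratios above 0, 4 under median scaling, and a median of 0.44. Of these SEC11C, a catalytic subunit, had 0.86, the signal peptide peptidase HM13 0.57, SPCS3 0.53 and SPCS2 0.35, though another probe of SPCS2 gave 0.026. The 12 genes of oligosaccharyltransferase, which attaches N-glycans at the channel, had a median of 0.19, with 10 above 0. Under median scaling the median was 0.064 and 7 lay above 0, near the share of all genes. The 1 that reached 1.5-fold, and not under median scaling, was MAGT1 at 0.68, ahead of OSTC at 0.43, STT3A at 0.35 and KRTCAP2 at 0.27.

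Inside the lumen, the BiP machinery had a median of 0.60 at 20 µM. All 5 genes had ratios above 0, under median scaling too, against 52.8% of all genes. At least 1.5-fold higher were 3, 2 under median scaling, against 1.94% of all genes. DNAJC3, a J-domain partner of BiP, had 1.28, HYOU1, a nucleotide exchange factor of BiP, 0.71, and HSPA5, BiP itself, 0.60. SIL1, another exchange factor, stood at 0.37. The HSPA5 probe was dim, with signals of 179.4, 239.6 and 236.5, and the HYOU1 probe dimmer still, with 129.4, 149 and 181.1, so the added offset brings the ratios of both closer to 0. Without the scanner's background column, the list's median at 20 µM ran from 0.48 under the stricter filter to 0.88 with the blank level subtracted. With that column subtracted it was 0.17. Of 4 genes of ribosome tethers and the SND pathway all lay above 0, 3 under median scaling, led by CKAP4, a protein of ER sheets, at 0.94 with 0.74 on its other probe. RRBP1 stood at 0.44, with 0.060 on its other probe, KTN1 at 0.19 and TMEM208 at 0.078.

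The routes that bypass the channel were listed too, with counts too small to set apart from the shares of all genes. Of 9 genes of the ER membrane protein complex, an insertase, 4 lay above 0 at 20 µM and 5 below, where 47.1% of all genes lay, with a median of -0.036, and -0.17 under median scaling. EMC9 stood at -0.35, EMC10 at -0.23, EMC2 at 0.22 and EMC3 at 0.14. Of 6 genes for the insertion of tail-anchored proteins 4 lay below 0, against the same 47.1%, and 5 under median scaling. Their median was -0.12, and -0.22 under median scaling. GET4 stood at -0.43, with -0.36 on its other probe, GET1 at -0.40, CAMLG at 0.30 and GET3 at -0.18. At 5 µM the list medians were 0.45 for the BiP machinery, 0.20 for signal peptidases, 0.17 for the tethers, 0.16 for the signal recognition particle and its receptor and 0.13 for oligosaccharyltransferase. The median of the BiP machinery ran from 0.37 with no background correction to 0.86 with the blank level subtracted. With the scanner's background column subtracted it was 0.17. The medians of the other 4 lists named were below 0 under median scaling, between -0.078 and -0.0018. The remaining medians at 5 µM were 0.0060 for the paralogs, 0.023 for the multipass translocon, 0.026 for the ER membrane protein complex and -0.16 for tail-anchored insertion. The first 3 of these also turned under other settings, to as low as -0.10, -0.21 and -0.16.

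**Figure D5:**
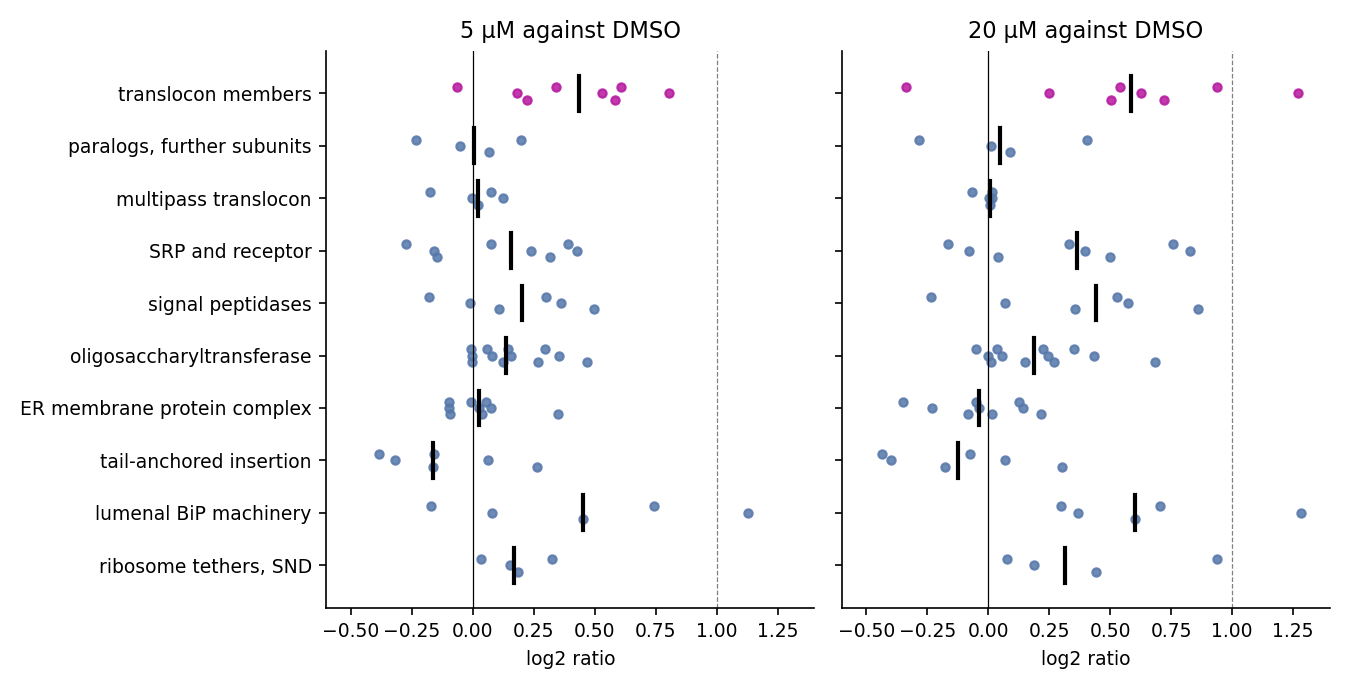
Log2 ratio to DMSO of each detected gene in the translocon set (purple) and in 9 lists of genes for protein entry into the ER (blue), at 5 µM on the left and 20 µM on the right; black bars are medians and the dashed line is 2-fold. At 20 µM the medians run from -0.12 for tail-anchored insertion to 0.60 for the BiP machinery, with the translocon set at 0.58.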

How the data were processed

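Per the file headers, the deposited scanner files give a median intensity per spot, from which no background was taken, and a column named as background. The authors also deposited a value table of intensities, each array scaled to a median of 25; its scale is linear and uncentred, and its direction is that of the signal. Per the labels' protocols, RNA was amplified as amino allyl aRNA and coupled to a dye for Toray arrays. The software that read the spots: not given in the sources used here.

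Signals of all spots were background-corrected with normexp (limma 3.58.1, R 4.3.3, offset of 50) and their log2 values were quantile normalized across arrays, control spots left out. Detection used 480 control spots after dropping 5% at each end. The probe detected on most arrays, then the brightest, stood for a gene. Folds of 1.5 and 2 were counted. The members and lists were chosen with earlier results of these data known. All members were named, with up to 4 genes a list by size at 20 µM and the 5 genes nearest to the member with the largest ratio. The other 9 settings were median scaling, no background correction, the blank level subtracted, the scanner's background column subtracted, an offset of 16, the authors' value table, no detection filter, a stricter filter at 2 times the detection threshold, and the mean of all probes of a gene. Python 3.11.15, numpy 2.4.6, pandas 2.3.3 and matplotlib 3.10.9 were used.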

Additional observations from a re-analysis of the deposited data

How the results depend on the processing

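Without the scanner's background column, the median of the members stayed above 0 in all 3 comparisons under the 8 other settings. It ran from 0.49 to 0.63 at 20 µM, 0.23 to 0.53 at 5 µM and 0.15 to 0.25 between the doses. The highest at 20 and at 5 µM, 0.63 and 0.53, came under the stricter filter, over 7 genes without SEC62. At 5 µM the median was 0.23 under median scaling, and the count at least 1.5-fold higher, 2, became 0 under median scaling, 1 in the authors' value table and 1 with all probes averaged. With the background column subtracted, the medians were 0.89 at 5 µM and 0.385 between the doses. The counts at least 1.5-fold higher were then 5 at 5 µM and 4 between the doses, while those over all genes went from 62 to 695 of 16075 and from 147 to 804 of 16036. Above 0 lay 5 of the 8 at either dose and 4 between the doses, in place of 7 in each. SEC61A1 turned to -1.55 at 20 µM and -0.77 at 5 µM, SSR2 to -0.024 at 20 µM and SEC63 to -0.58 at 5 µM, and the largest ratio at 20 µM was that of TRAM1, 3.33. Between the doses SEC61A1, SSR2 and SSR3 turned below 0. That column had Spearman correlations across probes of 0.971, 0.967 and 0.969 with the spot's own signal, and under it the 20 µM ratios of paired probes had a Pearson correlation of -0.012 over 2007 genes. Under normexp alone it was 0.68; this is across genes, which are not independent replicates. SEC62 did not pass the stricter filter and has no value under it. A ratio or median was taken as moved when it differed by at least 1 SD over probe pairs of any brightness. That SD was 0.15 for 20 µM against DMSO, 0.11 for 5 µM against DMSO and 0.12 between the doses. A count was moved when it changed by over 1.5-fold, or to or from 0. Of 60 results, 20 moved under median scaling. With the background column subtracted 45 moved, apart from 3 ratios past 1.5-fold that changed sign. Each of the other settings moved at most 7. No paired analysis was possible because each group has 1 array.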
